A study of Homo sapiens with 4 samples.

Results

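The BCL2 family decides at the mitochondrial surface whether a cell starts apoptosis. The 10 genes described here were taken by symbol from a table of 58219 genes: BMF, BCL2L11, BBC3, PMAIP1, BID and BIK, which encode BH3-only death proteins, BCL2, BCL2L1 and MCL1, which encode survival proteins, and the effector BAX. Each symbol matched 1 row, 9 of the 10 had counts, and these 9 passed the filter on low counts that left 16340 genes to test. All libraries came from U87, an established human glioblastoma line grown in high-glucose medium with fetal serum. The controls (0 mM carnosine, 2 libraries) had fresh medium for 24 h, and the carnosine group (50 mM, 2 libraries) had the same medium with carnosine, the dipeptide beta-alanyl-L-histidine, for 24 h. A single cell line at a single dose and time is thus described, and the labels do not say that the replicates came from separate cultures, so p-values measure the spread between these libraries, which may be technical.

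BAX and its relative BAK1 can form pores in the outer mitochondrial membrane, which lets cytochrome c out and switches on caspases. BCL2, BCL-XL (from BCL2L1) and MCL1 hold these effectors and the BH3-only proteins in check. BH3-only proteins report stress: a short helix, the BH3 domain, docks into a groove on the survival proteins, and some members also activate BAX and BAK1 directly. Much of this control acts on the proteins, which RNA counts do not measure.

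The coding stretches of the BH3 core are shown because this element is what the 10 members have in common. Each is read from a GENCODE 29 transcript (GRCh38), 24 bases long, 5′ to 3′ on the coding strand, with the codons of the conserved leucine and aspartate in capitals, and each lies within a single exon. The stretch was found as the 1 match in each coding sequence to the pattern of the BH3 core, and transcripts with a match were preferred. It is in 4 of 9 coding transcripts of BMF, 7 of 17 of BCL2L11, 5 of 11 of BID and 4 of 7 of BAX. For BBC3 it is in 3 of 4 and for BCL2L1 in 8 of 9. All coding transcripts of PMAIP1, BIK, BCL2 and MCL1 hold it. Counts per gene do not tell transcripts with and without it apart.
BMF, chr15:40104201-40104224, minus strand, exon 3: CTTcagtgcattgcaGACcagttc
BCL2L11, chr2:111150103-111150126, plus strand, exon 4: TTGcggcgtattggaGACgagttt
BBC3, chr19:47226585-47226608, minus strand, exon 3: CTGcggcggatggcgGACgacctc
PMAIP1, chr18:59902673-59902696, plus strand, exon 2: CTCaggagatttggaGACaaactg
BID, chr22:17739421-17739444, minus strand, exon 4: CTCgcccaggtcgggGACagcatg
BIK, chr22:43127716-43127739, plus strand, exon 3: CTGgcctgcatcgggGACgagatg
BCL2, chr18:63318355-63318378, minus strand, exon 1: CTCcgccaggccggcGACgacttc
BCL2L1, chr20:31721928-31721951, minus strand, exon 1: CTGagggaggcaggcGACgagttt
MCL1, chr1:150578871-150578894, minus strand, exon 1: TTAcgacgggttgggGATggcgtg
BAX, chr19:48955787-48955810, plus strand, exon 3: CTCaagcgcatcgggGACgaactg

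BMF was the member that passed the test: it was 3.96-fold higher with carnosine. Of the other 4 tested BH3-only genes, BCL2L11, BBC3 and PMAIP1 had higher values in both carnosine libraries than in both controls, and for BID the groups overlapped. BCL2L1, MCL1 and BAX had lower values in both carnosine libraries. None of these 7 passed the test. Of the 9 tested members 1 rose, 0 fell and 8 did not pass (edgeR's quasi-likelihood test, adjusted p under 0.05 over all genes tested). Of all genes tested, 8.31% were called, 3.95% higher and 4.36% lower, so 1 of 9 members is a share near the background. At an unadjusted p under 0.05 there were 5 of 9 members, against 4473 of the 16340 genes. The groups did not overlap for 7 of the 9 members, 4 higher and 3 lower, against 56.5% of all genes tested, 27.8% higher and 28.8% lower. The median log2 fold change was -0.11 over the tested members and 0.0009 over all genes tested.

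**Figure D1:**
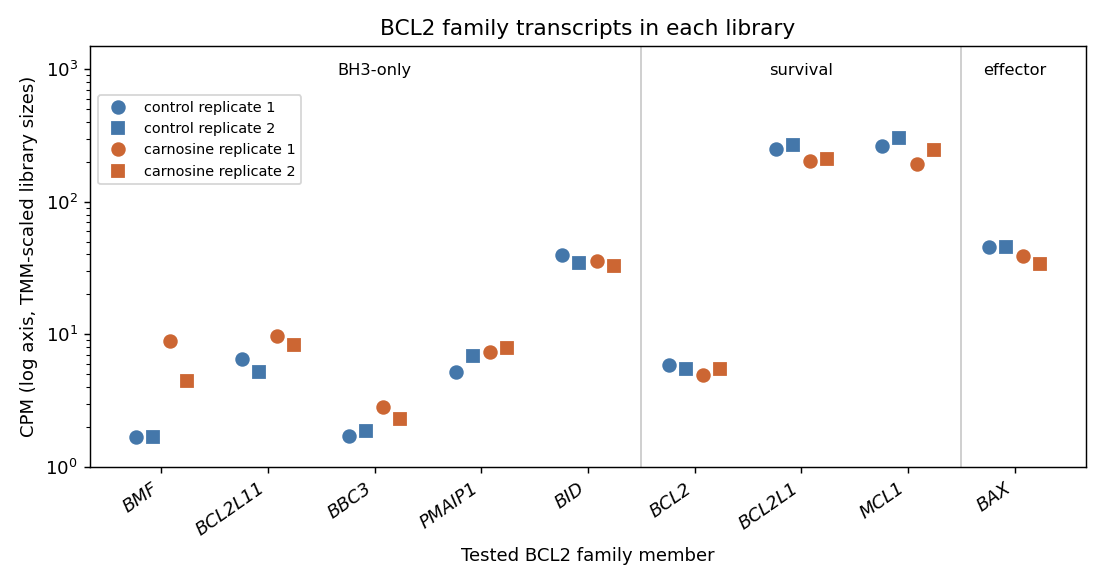
Scaled counts (CPM, log axis) of the 9 tested members in each of the 4 libraries; circles are replicate 1 and squares replicate 2, controls in blue and carnosine in orange. BMF lies at 1.69 and 1.67 CPM in the controls and at 8.86 and 4.41 CPM with carnosine, while MCL1 lies between 193.1 and 303.4 CPM.

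The libraries were deep: gene counts summed to between 51632970 and 71766267, and 21763 to 22271 genes had a count. Mitochondrially encoded genes took 1.01% and 0.879% of counts in the controls and 0.912% and 0.798% with carnosine, so the groups overlapped. Of the 8 astroglial and glioma markers examined, VIM, CD44 and CHI3L1 were abundant, whereas S100B had no count, SOX2 had 2 counts in a single library and GFAP 4 to 16 counts. The 8 markers summed to 8851 and 8319 CPM in the controls and 7101 and 7358 CPM with carnosine, mostly from VIM, which did not pass (log2 fold change -0.37, edgeR adjusted p = 0.139). CHI3L1 rose (log2 fold change 0.55, adjusted p = 0.0243), whereas CD44 (0.25) and OLIG2 (-0.85) did not pass. The 5 blood cell markers summed to under 1 CPM in each library, and HBB, AIF1 and CD3E had no count. The 5 endothelial and epithelial markers summed to 3.46 and 3.97 CPM in the controls and 8.51 and 7.33 CPM with carnosine, with PECAM1 the member that rose and CDH5 at 0. The 5 neuron markers summed to 38.0 and 33.1 CPM in the controls and 36.6 and 31.2 CPM with carnosine. The part of these markers in the results below was not tested.

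BMF encodes a BH3-only protein that is held on the actin and myosin V skeleton through a dynein light chain and is released by stress such as loss of anchorage. The gene (ENSG00000104081.13, minus strand of chromosome 15, 40087890 to 40108892, GRCh38) had 120 and 98 counts in the controls, against 533 and 222 with carnosine. As CPM, counts scaled to library size, these were 1.69 and 1.67 CPM in the controls and 8.86 and 4.41 CPM with carnosine. The controls lay close together, both carnosine libraries lay above them, and carnosine replicate 1 was the highest. The mean went from 1.68 ± 0.012 to 6.64 ± 3.15 CPM (SD over 2 libraries per group). The log2 fold change was 1.98 ± 0.34 (SE; 95% interval 1.17 to 2.79; edgeR adjusted p = 0.0227). The log2 fold change was 1.39 without carnosine replicate 1 and 2.39 without carnosine replicate 2, with edgeR adjusted p values of 0.0215 and 0.000890. By unadjusted p, BMF ranked 492 among the 16340 genes. In bulk RNA a larger share of cells with a transcript and more of it per cell cannot be told apart. BMF shares 461 exonic bases with the opposite-strand gene BMF-AS1, which had 0 counts in all 4 libraries.

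The 250 bases before the RefSeq start of BMF (GRCh38.p14, chr15:40108880-40109129, minus strand, printed 5′ to 3′) are shown because BMF is the member that rose, with the match to a searched motif, a GC box, in capitals.
BMF: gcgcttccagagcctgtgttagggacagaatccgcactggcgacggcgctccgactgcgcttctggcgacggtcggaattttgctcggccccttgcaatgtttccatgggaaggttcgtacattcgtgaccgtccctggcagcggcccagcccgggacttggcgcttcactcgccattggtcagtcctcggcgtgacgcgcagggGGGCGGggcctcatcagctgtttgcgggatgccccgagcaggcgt
This window was searched on both strands for the letters GGGCGG (GC box), GTAAACA (FOXO), CACGTG (E-box), TGANTCA (AP-1), TGACGTCA (CRE) and TGATGCAA (a C/EBP-ATF composite). The GC box, 45 to 40 bases before the start, was the match in BMF, and 42.3% of 27305 promoter windows of the same length hold one. The RefSeq table held 8 of the 10 members, and 5 of these 8 had a GC box.

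Motif letters differed between members. BCL2L11 had the FOXO letters 223 to 217 bases before its start, the 1 of 8 members with them, against 2.98% of all windows. BAX had 4 E-boxes, the farthest 138 to 133 and the nearest 14 to 9 bases before the start, and BBC3 had 1 E-box and 1 AP-1 match, against 6.49% and 6.60% of all windows with at least 1. None of the 8 windows had the CRE or C/EBP-ATF letters, which 1.77% and 0.82% of all windows hold. These are matches of letters in a short window and not sites shown to be bound. The windows ranged from 49.2% GC in BBC3 to 76.8% in BCL2L11, with a median of 67.6% for the 8 and 58.0% for all windows.

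BCL2L11 encodes BIM, a BH3-only protein that can bind every main survival protein and can activate BAX. Its level was 6.48 and 5.16 CPM in the controls and 9.69 and 8.24 CPM with carnosine. Both carnosine libraries lay above both controls. The log2 fold change was 0.62 ± 0.18 (SE; 95% interval 0.19 to 1.05) and did not pass (edgeR adjusted p = 0.0826). DESeq2 gave an adjusted p of 0.0395 on the same counts. BCL2L11 shares 727 exonic bases, 10.9% of its own, with the opposite-strand noncoding gene MIR4435-2HG, which had a mean count of 2283 and a log2 fold change of 0.05. Whether the authors counted by strand is not stated in the labels, so reads of such overlapping genes may not be told apart.

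BBC3 encodes PUMA and PMAIP1 encodes NOXA, both BH3-only proteins controlled largely through transcription, and NOXA binds mainly MCL1. BBC3 had 1.72 and 1.87 CPM in the controls and 2.83 and 2.28 CPM with carnosine, a log2 fold change of 0.51 ± 0.25 (SE; 95% interval -0.08 to 1.10; edgeR adjusted p = 0.241). PMAIP1 had 5.20 and 6.89 CPM in the controls and 7.32 and 7.84 CPM with carnosine, with a log2 fold change of 0.33 ± 0.19 (95% interval -0.12 to 0.77; edgeR adjusted p = 0.313). In both genes the carnosine libraries lay above the controls, for PMAIP1 by a margin smaller than the spread between the controls. Leaving out control replicate 1 or 2 gave PMAIP1 a log2 fold change of 0.13 or 0.54.

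BID links death receptors to mitochondria once caspase-8 has cleaved it, and was the most abundant BH3-only member. It had 39.6 and 34.8 CPM in the controls and 35.8 and 32.9 CPM with carnosine, so the groups overlapped. The log2 fold change was -0.11 ± 0.11 (95% interval -0.38 to 0.15; edgeR adjusted p = 0.567). BIK, a BH3-only protein of the endoplasmic reticulum, had 0 counts in all 4 libraries. A count of 0 allows up to 3 counts, or 0.0422 to 0.0596 CPM depending on the library, for counting error only. At this depth BIK transcripts were not detectable in either group.

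BCL2L1 and MCL1 held most of the survival transcripts. BCL2L1 had 249.9 and 269.8 CPM in the controls and 203.4 and 211.4 CPM with carnosine. Both carnosine libraries lay below both controls, and the log2 fold change was -0.33 ± 0.10 (SE; 95% interval -0.57 to -0.08; edgeR adjusted p = 0.102). BCL2L1 shares 1424 exonic bases, 43% of its own, with the opposite-strand gene ABALON. ABALON had a mean count of 22.3, against 10648 to 17771 counts of BCL2L1 in a library. As the strand setting is not stated, what this overlap does to the counts of BCL2L1, and to levels drawn from them, is not known.

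MCL1, a short-lived protein that depends on steady synthesis, had 265.0 and 303.4 CPM in the controls and 193.1 and 246.5 CPM with carnosine. The groups did not overlap, but the carnosine libraries differed from each other by more than carnosine replicate 2 differed from control replicate 1. The log2 fold change was -0.37 ± 0.15 (SE; 95% interval -0.72 to -0.02; edgeR adjusted p = 0.162). It was -0.56 without carnosine replicate 2, where it passed (edgeR adjusted p = 0.0362), and -0.21 without carnosine replicate 1.

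BCL2, the founding member of the family, was low in this line. It had 5.91 and 5.44 CPM in the controls and 4.91 and 5.46 CPM with carnosine, and the groups overlapped. Its log2 fold change was -0.13 ± 0.17 (95% interval -0.54 to 0.27; edgeR adjusted p = 0.673).

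BAX had 45.7 and 45.8 CPM in the controls and 38.7 and 34.0 CPM with carnosine. The controls were nearly equal and both carnosine libraries lay below them. For BAX the log2 fold change was -0.33 ± 0.10 (SE; 95% interval -0.58 to -0.08; edgeR adjusted p = 0.0974). Adjusted over all genes BAX did not pass, and a p that misses the threshold does not show that the levels were equal.

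**Figure D2:**
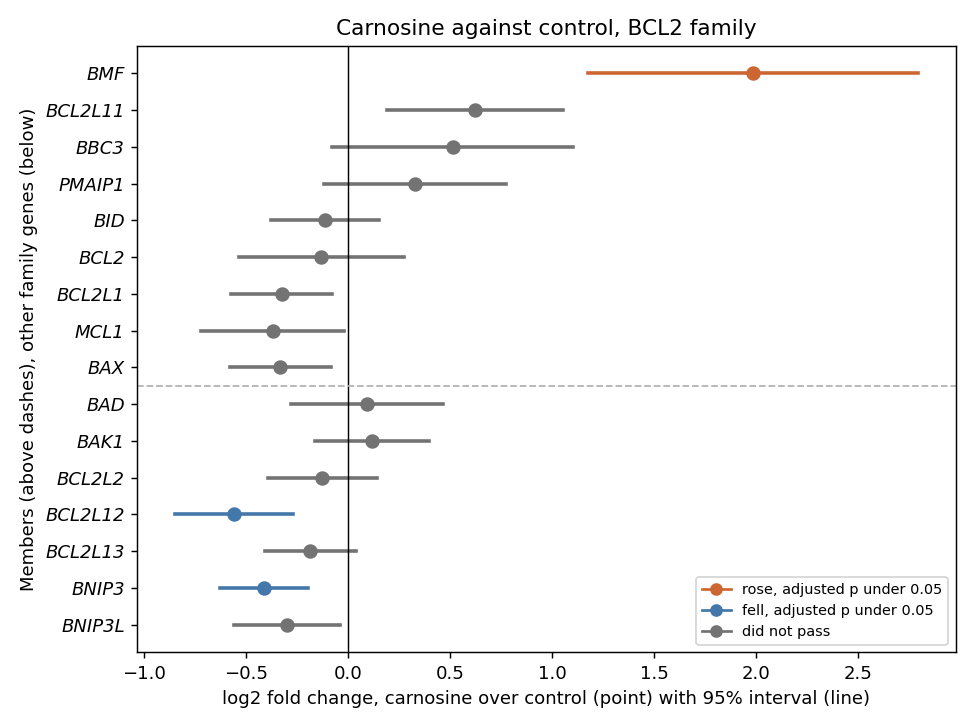
Log2 fold change of carnosine over control (points) with 95% intervals (lines, not adjusted for the number of genes) for the 9 tested members and 7 other tested genes of the family, BCL2L15 with 6 to 22 counts left out. BMF at 1.98 stands to the right of every other gene drawn, and BCL2L12 and BNIP3 are the genes called lower.

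Levels of different members can be compared only per length, as CPM divided by the kilobases of annotated exon of a gene (RPKM). In the controls the mean RPKM ran from BCL2L1 (78.4) and MCL1 (65.0) over BAX (17.7), BID (8.36), PMAIP1 (2.70), BCL2L11 (0.875), BBC3 (0.565) and BCL2 (0.482) to BMF (0.308), with BIK at 0. The controls of neighbours in this order did not overlap, but BBC3 (0.540 and 0.590) lay only just above BCL2 (0.502 and 0.462). Differences between members in this order were not tested. Each RPKM rests on an annotated length of which the cells may use only a part. With carnosine the mean RPKM of BMF was 1.22, above the means of BBC3 (0.803) and BCL2 (0.441) and beside BCL2L11 (1.35). The BMF libraries, at 1.63 and 0.809, spanned the BCL2L11 libraries at 1.46 and 1.24. They also overlapped the BBC3 libraries at 0.889 and 0.718. BMF thus moved from the lowest detected member to a level that overlapped those of BCL2L11 and BBC3.

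Sums over roles, also in RPKM, describe the transcript pool. The 3 survival genes summed to 136.5 and 151.3 in the controls, against 106.0 and 120.7 with carnosine. The 6 BH3-only genes summed to 13.0 and 12.6 in the controls, against 15.3 and 13.7 with carnosine. The effector gene BAX had 17.66 and 17.72 in the controls, against 14.96 and 13.13 with carnosine. Survival transcripts were the largest pool in each library. For the sums of all 3 roles the groups did not overlap, as for 56.5% of all single genes tested. The survival sum is mostly BCL2L1 and MCL1, neither of which passed the test. BCL2L1 made up between 43.3% and 45.1% of the summed RPKM of the 10 members in each library. BMF made up 0.185% and 0.169% in the controls, against 1.19% and 0.549% with carnosine.

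Ratios within a library were chosen after the values were seen and are given as a description. The RPKM ratio of BCL2L1 to BAX was 4.27 and 4.60 in the controls, against 4.10 and 4.86 with carnosine, so the groups overlapped. The ratio of MCL1 to PMAIP1, whose protein NOXA binds mainly MCL1, was 26.0 and 22.5 in the controls, against 13.5 and 16.1 with carnosine. The ratio of MCL1 to BMF was 195.6 and 226.4 in the controls, against 27.1 and 69.7 with carnosine. For the latter pair of ratios both carnosine libraries lay below both controls, while MCL1 transcripts remained in excess.

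**Figure D3:**
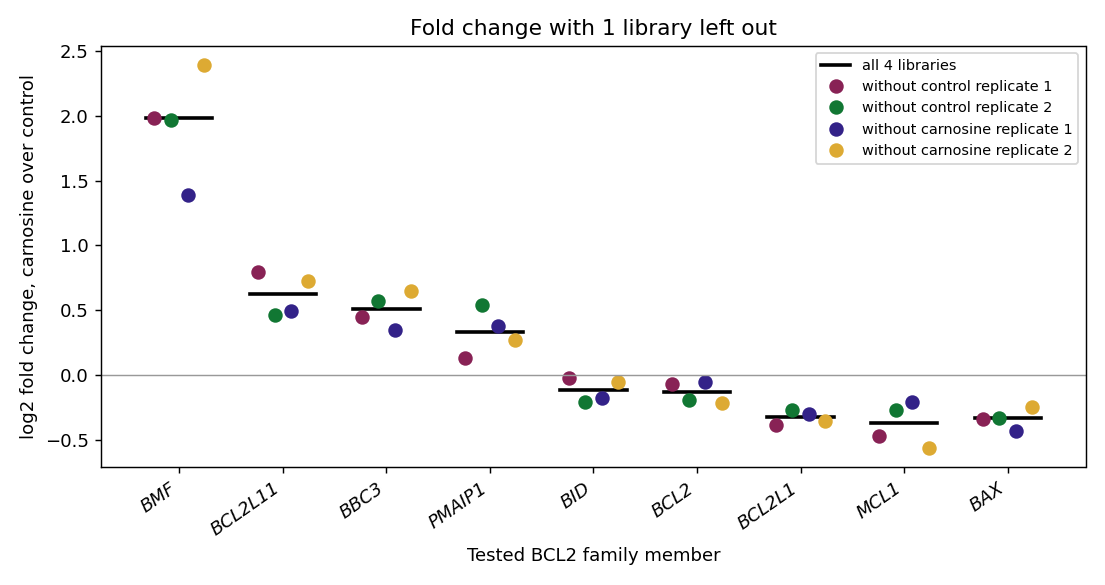
Log2 fold change of carnosine over control for the 9 tested members with all 4 libraries (black bar) and with each library left out in turn (points). BMF ranges from 1.39 to 2.39, MCL1 from -0.56 to -0.21, and no member changes sign.

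Among 13 other genes of the family, 8 were tested, 2 fell, 0 rose and 6 did not pass, with a median log2 fold change of -0.16. The 2 calls are 25.0% of 8 genes, against 8.31% of all genes tested, and nothing particular to so short a list is read from them. BCL2L12, an atypical member, had 22.7 and 19.9 CPM in the controls and 14.6 and 14.3 CPM with carnosine, and fell by 0.56 ± 0.12 on the log2 scale (SE; edgeR adjusted p = 0.0407). BNIP3, an atypical BH3 protein of mitophagy, had 52.9 and 54.1 CPM in the controls and 39.6 and 40.8 CPM with carnosine, and fell by 0.41 ± 0.09 (edgeR adjusted p = 0.0418). Leaving out any 1 library ended both calls, with adjusted p values from 0.0557 to 0.214 for BCL2L12 and from 0.0593 to 0.217 for BNIP3. BCL2L12 shares 734 exonic bases, 33.1% of its own, with the opposite-strand gene IRF3. The mean count of IRF3 was 3348.25, against 1092.5 for BCL2L12.

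The other effector, BAK1, and the BH3-only gene BAD were picked after their values were seen. BAK1 had 13.5 and 13.6 CPM in the controls and 14.7 and 14.7 CPM with carnosine, a log2 fold change of 0.12 ± 0.12 (95% interval -0.16 to 0.40; edgeR adjusted p = 0.574). BAX and BAK1 thus had estimates of opposite sign, and the difference between them was not tested. BAD had a log2 fold change of 0.09 ± 0.16 (edgeR adjusted p = 0.755), which was -0.11 without control replicate 2 and -0.02 without carnosine replicate 1. It shares 404 exonic bases, 23.7% of its own, with the opposite-strand gene GPR137 (mean count 2525.75, against 2996 for BAD). The survival gene BCL2L2, likewise picked, had -0.13 ± 0.11 (edgeR adjusted p = 0.519), which was -0.25 without carnosine replicate 1 and -0.02 without carnosine replicate 2. BCL2L2 shares 813 exonic bases, 19.4% of its own, with the same-strand gene BCL2L2-PABPN1 (mean count 37.5, against 3290.25 for BCL2L2). Another 206 are shared with the opposite-strand gene PPP1R3E. Reads in these stretches may not be told apart. Among the untested genes HRK had at most 2 counts, BOK at most 1 and BCL2A1 at most 7 in a library, and BCL2L10 and BCL2L14 had none.

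Downstream of the family, 16 genes of mitochondrial release and the apoptosome were tested, of which 1 fell, 0 rose and 15 did not pass. That 1 call is 6.25% of the list, below the 8.31% of all genes tested, and their median log2 fold change was 0.03. HTRA2, a mitochondrial protease that can block inhibitors of apoptosis, had 47.3 and 45.1 CPM in the controls and 33.2 and 31.0 CPM with carnosine, and fell by 0.52 ± 0.10 on the log2 scale (SE; edgeR adjusted p = 0.0285). The call ended without control replicate 1 (adjusted p = 0.129) and without control replicate 2 (adjusted p = 0.0896). HTRA2 shares exonic bases with AUP1 and LOXL3 on the opposite strand, 483 and 625 in number. Mean counts were 13438.2 for AUP1 and 4687.5 for LOXL3, against 2393 for HTRA2. BIRC3, an inhibitor of apoptosis picked after its values were seen, had 2.95 and 1.28 CPM in the controls and 4.71 and 4.11 CPM with carnosine, with a log2 fold change of 1.05 ± 0.38 (edgeR adjusted p = 0.129). Its log2 fold change was 1.78 with control replicate 1 left out, where it passed (adjusted p = 0.0152), and 0.57 with control replicate 2 left out (0.355). It did not pass with either carnosine library left out (adjusted p = 0.219 and 0.110).

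Of 14 tested transcription factors known to act on genes of the family, 2 rose, 1 fell and 11 did not pass, with a median log2 fold change of 0.16. The 3 calls are 21.4% of the list, against 8.31% of all genes tested. FOXO1, which can activate BH3-only genes, had 5.70 and 7.58 CPM in the controls and 11.8 and 11.7 CPM with carnosine, and rose by 0.83 ± 0.18 on the log2 scale (SE; edgeR adjusted p = 0.0385). STAT3, which can activate survival genes, had 182.0 and 154.2 CPM in the controls and 258.2 and 285.4 CPM with carnosine, and rose by 0.69 ± 0.12 (edgeR adjusted p = 0.0261). DDIT3, the stress factor CHOP, had 20.7 and 25.2 CPM in the controls and 15.7 and 12.4 CPM with carnosine, and fell by 0.71 ± 0.16 (edgeR adjusted p = 0.0445). In all 3 the groups did not overlap, as for 56.5% of all genes tested.

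Those calls were not firm against single libraries. FOXO1 lost its call when control replicate 1 or carnosine replicate 1 was left out (adjusted p = 0.146 and 0.0537), and STAT3 when control replicate 2 was left out (0.141). DDIT3 lost it when control replicate 2 or carnosine replicate 2 was left out (0.162 and 0.0649), and also with upper-quartile scaling (0.0532) and total counts only (0.0756). DDIT3 also shares 355 exonic bases, 27.2% of its own, with the opposite-strand gene MARS. The mean count of MARS was 14911.8, against 1129 for DDIT3. FOXO3, picked after its values were seen, had 48.8 and 43.8 CPM in the controls and 55.1 and 56.6 CPM with carnosine, a log2 fold change of 0.27 ± 0.10 that missed the threshold (edgeR adjusted p = 0.139).

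Partners that act on the proteins showed no call. Of 14 tested dynein light chains, kinases and genes of MCL1 turnover, 0 passed edgeR's test and 2 had an unadjusted p under 0.05. DESeq2 called 2 of the 14 and limma-voom 0. Over all genes tested, edgeR called 8.31%, and 4473 of 16340 had an unadjusted p under 0.05. DESeq2 called 2211 of 14439 genes with an adjusted p, and limma-voom 1322 of 16340. Nothing particular to so short a list is read from 0 calls. The median log2 fold change of the 14 was -0.08. TPT1, which can stabilise MCL1, and HUWE1, a ubiquitin ligase of MCL1, had the most counts, with log2 fold changes of -0.02 ± 0.13 and -0.06 ± 0.17 (edgeR adjusted p = 0.942 and 0.855). The dynein light chains DYNLL1 and DYNLL2, which bind BIM and BMF, were picked after their values were seen and had log2 fold changes of -0.17 ± 0.11 and -0.13 ± 0.10 (edgeR adjusted p = 0.380 and 0.473).

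The genes whose 4 values lay nearest to those of BMF were described by Euclidean distance of log2 CPM centred on the control mean, among genes with a mean count of at least 100. The nearest was the antisense RNA gene ENSG00000262580 (distance 0.32), followed by NEAT1, a noncoding RNA of nuclear paraspeckles (0.52), and SLC9A3-AS1 (0.60). NEAT1 had 158.3 and 118.7 CPM in the controls and 568.9 and 300.0 CPM with carnosine, a log2 fold change of 1.65 ± 0.30 (edgeR adjusted p = 0.0260). Like BMF, all 3 were higher in carnosine replicate 1 than in carnosine replicate 2, an order that the choice by these same values favours. With 4 values to a gene such likeness is a description of these libraries.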

How the data were processed

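Total RNA depleted of ribosomal RNA was sequenced from 4 libraries. The authors deposited unnormalized counts, 1 whole number per gene and library. The submitters' processing notes name HISAT2 2.1.0, HTSeq 0.6.1, bcl2fastq 2.17.0 and the build hg38; no source used here gives the annotation release, the strand setting or how reads with several matches were treated. Coordinates and exonic lengths came from GENCODE 29, which matched 57836 of 58219 genes. Genes were kept by filterByExpr of edgeR 4.0.16 (count of 10 in 2 libraries, total of 15), scaled by TMM (factors 0.976 to 1.04) and tested with the quasi-likelihood test (two-sided; no covariate; 2 residual degrees of freedom). Adjustment was by Benjamini-Hochberg over 16340 genes with a threshold of 0.05, in R 4.3.3. SE is the log2 fold change over the root of F, and intervals use the moderated degrees of freedom. Alternatives were other scalings and filters, DESeq2 1.42.0, limma-voom 3.58.1, a replicate block and leaving out each library.

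The members and lists were chosen with earlier results of these data known. Named were all members, up to 4 passing genes of each other list or, where none passed, the 2 with the most counts, and the 3 patterns nearest to the member with the smallest p; genes named outside this rule are marked as picked. Replicates were not copies: the chi-square of their counts was 33.8 and 53.0 times its degrees of freedom in controls and carnosine. The result of 1 gene on the lists is not reported here.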

Additional observations from a re-analysis of the deposited data

How the results depend on the processing

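BMF was higher under all 12 alternatives, with log2 fold changes from 1.39 to 2.39. Each alternative on all 4 libraries called it, with adjusted p values from 7.75e-21 (edgeR with the replicate block) to 0.0362 (limma-voom). The block fit leaves 1 residual degree of freedom, so its small p is not read as greater certainty. No tested member changed sign. With no filter on low counts, the calls were 3145 of 26103 genes tested and 3 of 9 members (BMF, BCL2L11 and MCL1). They were also 3 of 16 release and apoptosome genes, 6 of 16 transcription factors and 2 of 14 partners. With DESeq2 the calls were 2211 of 14439 genes with an adjusted p, 2 of 9 members (BMF and BCL2L11), 5 of 14 transcription factors and 2 of 14 partners. With total counts only, 0 other family genes were called by edgeR. With the replicate block, the calls were 5767 of 16340 genes tested and 5 of 9 members (BMF and BCL2L11 higher, BCL2L1, MCL1 and BAX lower). They were also 4 of 16 release and apoptosome genes, 10 of 14 transcription factors and 2 of 14 partners. Over all genes, too, the no-filter, DESeq2 and block fits each called more than the 1358 of 16340 in the main fit. The labels do not say what a replicate number shares, so the block is no part of the design; same-numbered deviations correlated with r = 0.548 across 11970 genes, which are not independent. With 1 library left out, counts ranged from 505 to 1595 for all genes, 1 to 2 for members, 0 to 0 for other family genes, 0 to 1 for release and apoptosome genes, 1 to 4 for transcription factors and 0 to 1 for partners. In these fits 1 residual degree of freedom remains, and the lone library is assumed to vary like the other group. Signs turned for TPT1 with total counts only (0.0025) and without control replicate 2 (0.04) or carnosine replicate 1 (0.059), for HUWE1 without control replicate 1 (0.10) or carnosine replicate 2 (0.10), and for BAD without control replicate 2 (-0.11) or carnosine replicate 1 (-0.02). With 1 library left out, these ranged from -0.11 to 0.059 for TPT1, -0.26 to 0.10 for HUWE1 and -0.11 to 0.32 for BAD. Of 324 values of 27 named genes under the alternatives, 286 kept direction and side of the threshold. BMF and BBC3 had the lowest mean counts among the tested members, with 98 to 533 and 110 to 170 in a library, which limits their precision.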
